A study of Mus musculus with 12 samples.

Results

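CSF3R T618I is an activating point mutation of the granulocyte colony-stimulating factor receptor, and its effect on its own was read here as the difference between mouse bone marrow cells given the mutant receptor and cells given an empty vector. The libraries were chosen by their labels: 3 CSF3R T618I libraries and 3 empty-vector libraries, 6 of the 12 libraries in the series, with every library that carried a CEBPA mutant left out. RNA-seq had been made from marrow of C57BL/6 mice, an inbred strain, taken from healthy young adult donors and transduced with retrovirus in a medium that held SCF, IL-6, IL-3 and WEHI supernatant. The sort kept lineage-negative cells that fluoresced from the vectors. Both groups therefore share strain, culture and sort, and their labels differ in the CSF3R T618I insert. Sorted cells were positive for both GFP and mCherry, and the labels do not say what the second vector held in either group. The mutant was expressed from a retroviral vector in cells that keep their own Csf3r genes. The letters A, B and C mark biological replicates, and the labels do not say whether they came from separate animals, so p-values measure the spread between these libraries.

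The granulocyte colony-stimulating factor receptor is a cytokine receptor without a kinase of its own. When ligand joins its chains, JAK kinases bound to its tail are activated, STAT proteins (mainly STAT3, with STAT5) are phosphorylated and enter the nucleus, and the MAP kinase pathway is switched on as well. STAT targets include SOCS proteins, which bind the receptor or its kinases and damp the signal. In marrow the receptor drives neutrophil production, and membrane-proximal mutations such as T618I, which signal without ligand, are known from chronic neutrophilic leukemia.

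Expression was given as CPM, counts divided by the TMM-adjusted library size, which are not corrected for gene length, so levels are compared between groups and not between genes. A gene was called when edgeR's quasi-likelihood test gave an adjusted p under 0.05 and the log2 fold change, CSF3R T618I over empty vector, lay beyond 1 in either direction. For members of gene lists "rose" and "fell" mean an adjusted p under 0.05 alone. Library totals ran from 44210071 to 67431235 counts. The CSF3R T618I libraries varied more among themselves than the empty-vector libraries, at coefficients of biological variation of 0.259 and 0.146. Deviations from the group mean also followed exon length within both groups: across genes they correlated with log2 length at -0.379, -0.182 and 0.446 in CSF3R T618I libraries A, B and C, and at 0.389, -0.212 and -0.214 in empty-vector libraries A, B and C. Mitochondrial counts took 0.887%, 0.601% and 0.295% of the CSF3R T618I libraries and 0.331%, 0.432% and 0.499% of the empty-vector libraries. What these length and mitochondrial shifts contribute to single results was not tested beyond the alternatives given.

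The mutant receptor changed 1071 of 15304 tested genes, 7.0% of them, with 605 called higher (3.95%) and 466 called lower (3.04%). The rises were larger than the falls: the median log2 fold change was 2.21 among genes called higher and -1.58 among genes called lower, against 0.01 over all tested genes. A rise beyond 3 on the log2 scale was seen for 209 genes, and a fall beyond -3 for 35. In all 605 and all 466 called genes the ranges of the 3 mutant and the 3 empty-vector libraries did not overlap, which was also true of 30.6% of all tested genes. In these bulk samples more cells of a type and more RNA per cell cannot be told apart. The count of called genes was 1699 without CSF3R T618I library C, with 895 higher and 804 lower. Leaving out empty-vector library B instead gave 808.

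**Figure D1:**
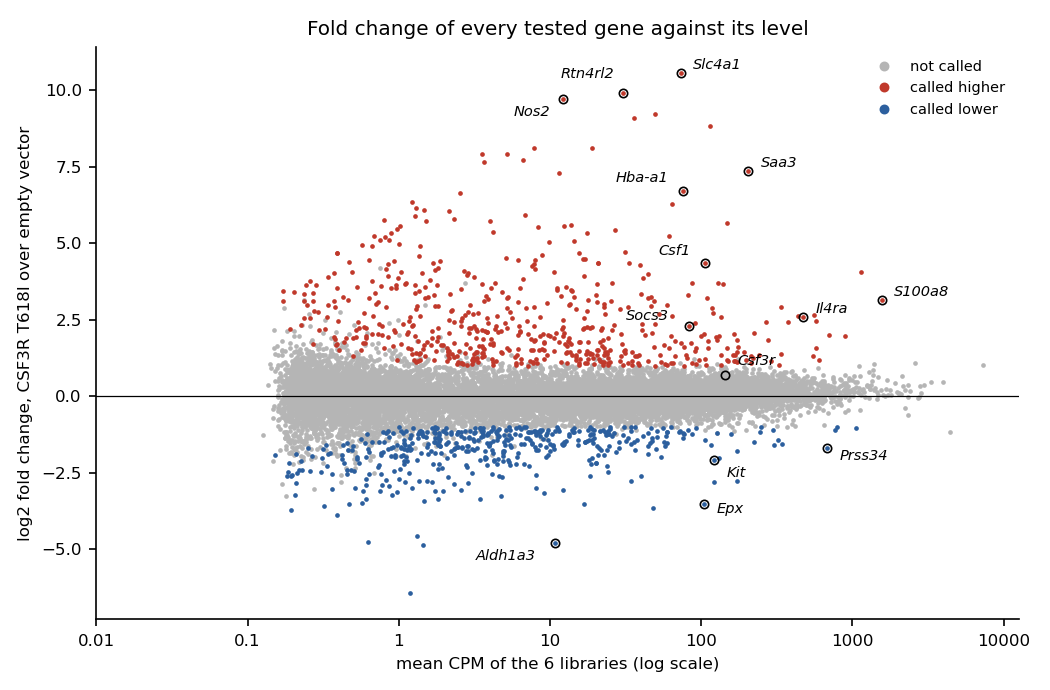
Each point is a gene, with its mean CPM over the 6 libraries on a log axis and its log2 fold change, CSF3R T618I over empty vector, on the vertical axis. Red genes were called higher and blue genes called lower, and 48 called genes with 3 or fewer counts in a group are not drawn. Slc4a1, at 10.57, stands highest among the labelled genes, and Csf3r lies among the genes not called.

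Called genes were most frequent from 1 to 10 CPM in both directions. By mean CPM over the 6 libraries, 124 of 3476 tested genes under 1 CPM were called higher (3.57%) and 92 lower (2.65%). From 1 to 10 CPM rises and falls were nearly equal, with 241 higher and 243 lower of 3168. From 10 to 100 CPM 183 were higher and 110 lower. Of the 2664 genes at 100 CPM or more, 57 were called higher (2.14%) and 21 lower (0.788%). The genes called higher took 4.1%, 3.26% and 3.43% of all CPM in CSF3R T618I libraries A, B and C, against 0.924%, 0.986% and 0.917% in empty-vector libraries A, B and C. The genes called lower took 0.586%, 0.561% and 0.599% in CSF3R T618I cells, against 1.76%, 1.68% and 1.53% in empty-vector cells. The 10 largest rises made up 36.9% of the summed rise in CPM, and S100a8 and S100a9 alone made up 16.0%.

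**Figure D2:**
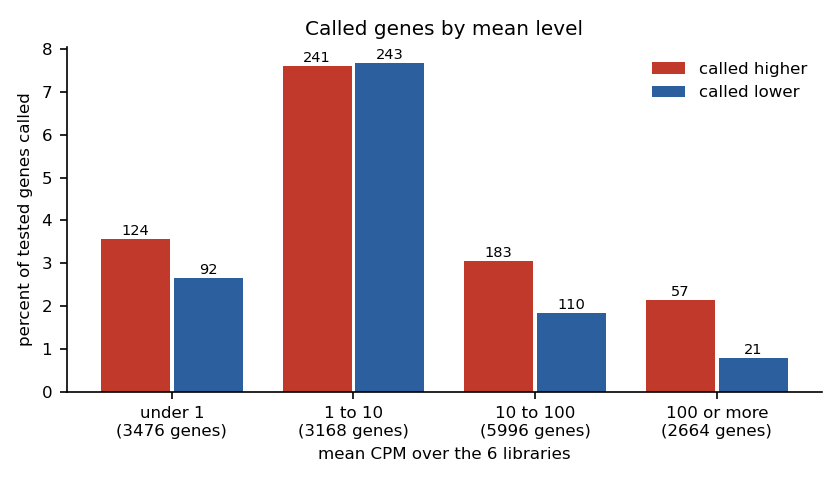
Bars give the percent of tested genes called higher (red) and called lower (blue) at 4 levels of mean CPM over the 6 libraries, with the number of called genes above each bar. Both directions are most frequent from 1 to 10 CPM, at 7.61% higher and 7.67% lower.

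The targeted receptor itself was measured before its pathway. Csf3r (chr4:126024550-126044440 on mm10) had 127, 149 and 259 CPM in CSF3R T618I cells, against 126, 113 and 92 CPM in empty-vector cells. The mutant libraries lay above all 3 empty-vector libraries, with library A only just above and library C far above. The difference missed the threshold (log2 fold change 0.70, SE 0.271, adjusted p = 0.164). In mouse marrow carrying their CSF3R vectors, the authors measured the insert with an assay for human CSF3R. How many reads of a human insert align to mouse Csf3r was not tested. The counts do not separate such reads from the endogenous transcript, so this level does not measure how much mutant receptor was made.

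Several other cytokine receptors rose with the mutant receptor, and Kit fell. Of 33 cytokine receptor genes tested, 11 rose and 2 fell, and 20 did not pass the test, where 5.87% of all tested genes rose and 5.25% fell. The median log2 fold change of the 33 was 0.45. With the within-group length trend removed 17 rose, and in the 12-library fit 20 rose and 4 fell. There were 5 falls without CSF3R T618I library C, while no fall remained without empty-vector library A and 1 each remained without CSF3R T618I library B or empty-vector library B.

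Il4ra encodes the alpha chain of the interleukin-4 receptor. It had 550.0, 740.2 and 1151 CPM in CSF3R T618I cells, against 166, 128 and 115 CPM in empty-vector cells (log2 fold change 2.58, SE 0.289, adjusted p = 0.00138). Csf2rb, the beta chain through which interleukin-3, interleukin-5 and GM-CSF signal, rose as well, and so did Csf2rb2, a related beta chain for interleukin-3. Csf2rb had 762, 809 and 1030 CPM in CSF3R T618I cells, against 338, 273 and 259 CPM in empty-vector cells (log2 fold change 1.58, SE 0.167, adjusted p = 0.00106). Csf2rb2 had 159.6, 185 and 256 CPM in CSF3R T618I cells, against 69.1, 47.4 and 40.8 CPM in empty-vector cells (log2 fold change 1.93, SE 0.254, adjusted p = 0.00288). For all 3 genes library C was the highest of the CSF3R T618I libraries and the groups did not overlap. Deviations in library C also rose with exon length (correlation 0.446), and what this adds to its rank was not tested. Interleukin-3 was in the medium of both groups. Il1r2, a decoy receptor that binds interleukin-1 without signalling, had 156, 70.8 and 133 CPM in CSF3R T618I cells, against 2.5, 5.45 and 1.64 CPM in empty-vector cells (log2 fold change 5.23, adjusted p = 8.05e-04). Il13ra1, Il7r and Lifr also rose, at lower levels, by 4.15, 3.23 and 2.45 on the log2 scale. Their groups did not overlap. Osmr, the oncostatin M receptor, had 133 counts over the CSF3R T618I libraries and 0 over the empty-vector libraries, at least 40.5-fold higher against a floor of 3 counts over the group.

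Kit, the receptor for the stem cell factor present in the medium, went the other way. It had 23.8, 40.7 and 74.5 CPM in CSF3R T618I cells, against 277, 172 and 143 CPM in empty-vector cells (log2 fold change -2.09, SE 0.431, adjusted p = 0.0193), with CSF3R T618I library A lowest and empty-vector library A highest. Its adjusted p was 0.0888 without CSF3R T618I library B and 0.06 without empty-vector library A. Il5ra, the ligand-binding chain of the interleukin-5 receptor, also fell, with a mean of 0.0419 CPM against 0.594 CPM (log2 fold change -3.60, adjusted p = 0.0303), at very low levels, and its adjusted p was 0.071 without CSF3R T618I library A, 0.113 without empty-vector library A and 0.0952 without empty-vector library B.

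Of 23 JAK and STAT pathway genes tested, 5 rose (21.7%) and none fell at an adjusted p under 0.05. Over all tested genes 5.87% rose and 5.25% fell. The median log2 fold change of the 23 was -0.08. Stat3, the main STAT downstream of this receptor, had 281, 337 and 508 CPM in CSF3R T618I cells, against 226, 188 and 168 CPM in empty-vector cells (log2 fold change 0.95, SE 0.233, adjusted p = 0.039). The groups did not overlap, and the adjusted p was 0.0909 without CSF3R T618I library B, 0.0699 without empty-vector library A, 0.148 without empty-vector library B and 0.151 without empty-vector library C. Jak3, a kinase that pairs with the common gamma chain of interleukin receptors, had 103, 130.4 and 168 CPM in CSF3R T618I cells, against 50.9, 44.3 and 48.2 CPM in empty-vector cells (log2 fold change 1.49, adjusted p = 0.00246), with no overlap. Lyn, a Src family kinase known to bind this receptor, rose by 0.65 on the log2 scale. Jak2, Stat5a and Stat5b did not pass the test: their log2 fold changes were -0.52, -0.19 and -0.44. Lyn's adjusted p was 0.0703 without CSF3R T618I library B, 0.128 without empty-vector library A, 0.165 without empty-vector library B and 0.146 without empty-vector library C. Only 2 of the 23 rose without CSF3R T618I library B, or without any of the 3 empty-vector libraries, and 5 fell without CSF3R T618I library C.

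Feedback genes and transcriptional targets of JAK/STAT signalling split in direction. Of 31 tested, 11 rose (35.5%) and 7 fell (22.6%), beside 5.87% and 5.25% of all tested genes. The other 13 did not pass, and the median was -0.01. Socs3, the feedback inhibitor that binds this receptor, rose clearly. It had 134, 129 and 151 CPM in CSF3R T618I cells, against 29.4, 26.8 and 27.7 CPM in empty-vector cells (log2 fold change 2.30, SE 0.125, adjusted p = 9.21e-05). Replicates were tight in both groups, and every mutant library lay far above every empty-vector library. Bcl3, a nuclear partner of NF-kappa-B induced by STAT3, had 81.1, 82 and 90.7 CPM in CSF3R T618I cells, against 8.59, 8.68 and 9.55 CPM in empty-vector cells (log2 fold change 3.24, SE 0.125, adjusted p = 3.29e-05). Bcl6, a repressor that competes for STAT-type sites, had 9.18, 7.55 and 11.3 CPM in CSF3R T618I cells, against 1.17, 0.945 and 0.888 CPM in empty-vector cells (log2 fold change 3.22, adjusted p = 2.18e-04). Lrg1, a secreted glycoprotein of neutrophil granules and acute phase serum, rose most of the list, with 321, 222 and 329 CPM in CSF3R T618I cells, against 5.51, 8.68 and 2.92 CPM in empty-vector cells (log2 fold change 5.67, adjusted p = 3.02e-04). Junb, Pim2 and Cebpd rose by 1.39, 1.31 and 1.08 on the log2 scale.

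Cish and Socs2, feedback inhibitors best known as STAT5 targets, fell slightly instead. Cish had 26.8, 24.6 and 26.1 CPM in CSF3R T618I cells, against 36.8, 39.8 and 45 CPM in empty-vector cells (log2 fold change -0.65, adjusted p = 0.0133). Socs2 had 22.9, 24.1 and 20.8 CPM in CSF3R T618I cells, against 32, 33.8 and 39.3 CPM in empty-vector cells (log2 fold change -0.63, adjusted p = 0.0196). Neither gene's groups overlapped, although both falls were under 1 on the log2 scale. The adjusted p of Cish was 0.0763 without CSF3R T618I library B, 0.0695 without empty-vector library B and 0.0573 without empty-vector library C, and that of Socs2 was 0.0635 without CSF3R T618I library B, 0.0816 without empty-vector library B and 0.0765 without empty-vector library C. Dusp6, a phosphatase that acts back on ERK, had 26.1, 19.8 and 24.7 CPM in CSF3R T618I cells, against 81, 74 and 78 CPM in empty-vector cells (log2 fold change -1.73, SE 0.14, adjusted p = 3.81e-04). Dusp1, another MAP kinase phosphatase, fell too (log2 fold change -0.89, adjusted p = 0.0383), but with an adjusted p of 0.144 without CSF3R T618I library B, 0.101 without empty-vector library A and 0.0954 without empty-vector library B. Among D-type cyclins, Ccnd3 rose (0.94) while Ccnd1 and Ccnd2 fell (-1.80 and -0.77), and the adjusted p of Ccnd2 was 0.0516 without empty-vector library B. The number that fell was 3 without CSF3R T618I library B, 2 without empty-vector library B and 4 without empty-vector library C.

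**Figure D3:**
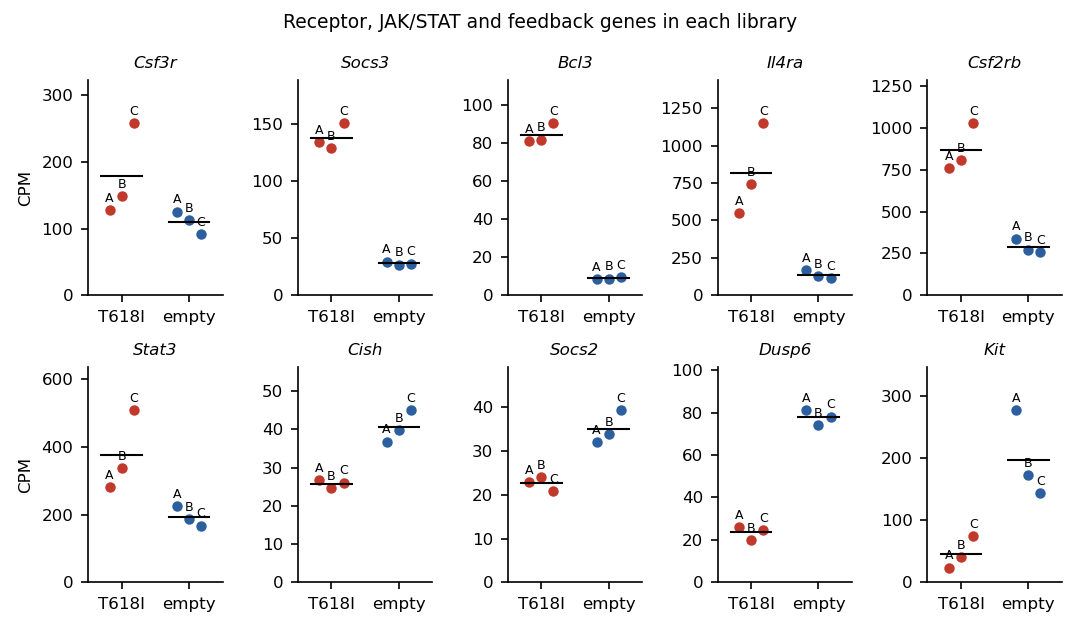
Each panel shows the CPM of a gene in the 3 CSF3R T618I libraries (red, left) and the 3 empty-vector libraries (blue, right), with letters for the replicates and a bar at the mean. Socs3 lies between 129 and 151 CPM in the mutant libraries, against 26.8 to 29.4 CPM in empty-vector libraries, while Cish, Socs2, Dusp6 and Kit sit lower in the mutant libraries.

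Promoters were searched for the STAT site TTCNNNGAA, which reads the same on both strands, in the 250 bases before each start site of RefSeq on GRCm38.p6. It occurred in 7.17% of the 10616 tested genes with a window, in 46 of 448 genes called higher (10.3%) and in 26 of 331 called lower (7.85%). Of the 8 called feedback genes and targets with a window, 2 held it, Socs3 and Bcl6. Their stretches are shown with each match in capitals because these are the feedback genes called here whose windows hold the pattern. The Socs3 stretch is chr11:117969476-117969556 on the minus strand, with its match ending 146 bases before the start. The first Bcl6 stretch is chr16:23981327-23981487 on the minus strand and holds 3 matches, and the second, before another Bcl6 start, is chr16:23988926-23989006 on the same strand. A match is a letter pattern and no evidence of binding.
Socs3: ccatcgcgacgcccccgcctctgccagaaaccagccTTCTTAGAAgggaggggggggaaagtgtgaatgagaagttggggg
Bcl6, inner start: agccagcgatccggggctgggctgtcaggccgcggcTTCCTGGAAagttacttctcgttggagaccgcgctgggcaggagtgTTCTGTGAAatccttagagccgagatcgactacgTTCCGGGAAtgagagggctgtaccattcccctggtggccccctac
Bcl6, outer start: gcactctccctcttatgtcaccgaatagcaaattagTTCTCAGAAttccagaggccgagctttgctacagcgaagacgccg

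Genes of late neutrophils had the highest median of all the lists. List members were chosen with earlier results of these data known, and this list holds large rises such as BC100530 and Dgat2, so its rank is descriptive only. Of 39 tested genes of secondary granules and late neutrophils, 23 rose (59.0%) and 1 fell (2.56%), beside 5.87% and 5.25% of all tested genes. Their median log2 fold change was 2.91. Their summed level was 13060, 6683 and 7503 CPM in CSF3R T618I libraries A, B and C, against 1541, 2310 and 1385 CPM in empty-vector libraries. S100a8 and S100a9 encode the calprotectin subunits that fill the neutrophil cytosol, and they had the largest rises in CPM of all called genes. S100a8 had 4530, 2162 and 1761 CPM in CSF3R T618I cells, against 215, 433 and 302 CPM in empty-vector cells (log2 fold change 3.15, SE 0.419, adjusted p = 0.00303). S100a9 had 3453, 1560 and 1422 CPM in CSF3R T618I cells, against 76.1, 217 and 94.6 CPM in empty-vector cells (log2 fold change 4.05, SE 0.531, adjusted p = 0.00282). Library A was the highest of the mutant libraries for both, and even the lowest mutant library lay far above every empty-vector library.

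Lcn2, the iron-siderophore binding protein of secondary granules, had 346, 169 and 263 CPM in CSF3R T618I cells, against 17.7, 27.6 and 15.4 CPM in empty-vector cells (log2 fold change 3.68, adjusted p = 6.16e-04). Mmp8, the neutrophil collagenase, averaged 83.7 ± 48.8 CPM in CSF3R T618I cells and 5.3 ± 1.9 CPM in empty-vector cells (SD, n = 3 each). Cd177, a neutrophil surface protein, averaged 160.5 ± 83.7 CPM in CSF3R T618I cells and 12.3 ± 9.6 CPM in empty-vector cells in the same way, and its adjusted p was 0.0645 without empty-vector library A. The spread among mutant libraries was wide for these genes, with library B lowest in each. Dgat2, an enzyme of triglyceride synthesis, had 516, 528 and 745 CPM in CSF3R T618I cells, against 79.8, 81.1 and 77.7 CPM in empty-vector cells (log2 fold change 2.91, adjusted p = 1.49e-04), with little spread in empty-vector cells. The proteins of secondary granules did not all move together. Ltf, encoding lactoferrin, had 53.2, 6.0 and 32.3 CPM in CSF3R T618I cells, against 10.3, 41.6 and 0.454 CPM in empty-vector cells. Camp, encoding cathelicidin, had 3.98, 0.573 and 0.646 CPM in CSF3R T618I cells, against 3.73, 15 and 0.967 CPM in empty-vector cells. Ngp, another granule protein, had 291, 58 and 185 CPM in CSF3R T618I cells, against 95.8, 234 and 33.5 CPM in empty-vector cells. None of the 3 passed the test and their groups overlapped, with empty-vector library B high for each. Fcnb, encoding a ficolin stored in granules, fell (log2 fold change -1.98, adjusted p = 0.0107). Ly6g, the Ly6G antigen of mature neutrophils, had 6.09, 0.648 and 1.17 CPM in CSF3R T618I cells, against 0.269, 0.601 and 0.118 CPM in empty-vector cells and did not pass (adjusted p = 0.0934).

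A run of genes in the stefin A cluster rose side by side. Stefins are inhibitors of cysteine cathepsins, and the 11 consecutive tested genes at chr16:36156811-36455392 on mm10 were all called higher, the longest such run among the tested genes. The 11 include the gene models Gm23306 and Gm15845, which were not taken as stefins here. Gm23306 had 44 counts over the mutant libraries and 0 over the empty-vector libraries. Stfa1 had 356, 169.6 and 155 CPM in CSF3R T618I cells, against 0.461, 0.666 and 0.355 CPM in empty-vector cells (log2 fold change 8.85, SE 0.486, adjusted p = 1.06e-04). BC100530 and Gm5483, neighbouring stefin genes, had means of 98.6 CPM against 0.159 CPM and 71.8 CPM against 0.13 CPM in CSF3R T618I against empty-vector cells. Stfa2l1 had 2925 counts over the mutant libraries and 1 over the empty-vector libraries. That is a ratio of 2669 with a 95% counting interval of 478.6 to 105500. Library A was the highest mutant library for these genes. Copies in this cluster are nearly identical, so how reads were divided among them is uncertain.

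Primary granule genes, made earlier in the lineage, did not rise. Of 16 tested, none rose and 3 fell (18.8%), beside 5.87% and 5.25% of all tested genes. The other 13 did not pass, and the median was 0.15. Of the 3 falls 2 also lay beyond 1 on the log2 scale, in genes not named here. Mpo, encoding myeloperoxidase, had 1707, 2483 and 3861 CPM in CSF3R T618I cells, against 8216, 6166 and 3941 CPM in empty-vector cells. The mutant libraries all lay below the empty-vector libraries, although CSF3R T618I library C and empty-vector library C nearly met, and the adjusted p was 0.0738. Elane, encoding neutrophil elastase, had 1890, 1742 and 1860 CPM in CSF3R T618I cells, against 3104, 3211 and 2165 CPM in empty-vector cells (log2 fold change -0.63, adjusted p = 0.048). Elane was not called, and its fall is close to the threshold on the adjusted p. That value was 0.0812 without CSF3R T618I library A and 0.179 without CSF3R T618I library B. It was 0.166 without empty-vector library A and 0.194 without empty-vector library B. Prtn3 and Ctsg, further serine proteases of these granules, overlapped between groups and did not pass, at 0.33 and 0.20 on the log2 scale. The number that fell was 0 without CSF3R T618I library B or without empty-vector library B, 1 without empty-vector library A, and 5 without CSF3R T618I library C, when 2 rose.

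Of 20 acute phase genes 11 passed the filter on low values, with a median of 2.10. Of the 11, 7 rose (63.6%) and none fell, beside 5.87% and 5.25% of all tested genes. Saa3, a serum amyloid A protein, had 604, 329.9 and 290.3 CPM in CSF3R T618I cells, against 2.63, 2.98 and 1.78 CPM in empty-vector cells (log2 fold change 7.37, SE 0.402, adjusted p = 1.05e-04). Hp, encoding haptoglobin, which binds free hemoglobin and is also stored in neutrophil granules, had 854, 619 and 766 CPM in CSF3R T618I cells, against 127, 138 and 102 CPM in empty-vector cells (log2 fold change 2.61, SE 0.178, adjusted p = 2.01e-04). Steap4, a metalloreductase, had 16, 7.46 and 23.7 CPM in CSF3R T618I cells, against 0.0192, 0.129 and 0.0197 CPM in empty-vector cells (log2 fold change 8.13, adjusted p = 4.90e-04). Within each of these genes the groups were separated by a wide gap.

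Several genes for killing and sensing rose. Of 13 genes of the NADPH oxidase and nitric oxide, 5 rose (38.5%) and 1 fell (7.69%), with a median of 0.56. Over all tested genes 5.87% rose and 5.25% fell. Nos2, the inducible nitric oxide synthase, had 23.2, 14.2 and 35.9 CPM in CSF3R T618I cells, against 0, 0.0644 and 0.0197 CPM in empty-vector cells (log2 fold change 9.71, SE 0.642, adjusted p = 1.84e-04). Cybb, the catalytic oxidase subunit, had 186, 146 and 367 CPM in CSF3R T618I cells, against 48.3, 45.8 and 21 CPM in empty-vector cells (log2 fold change 2.60, adjusted p = 0.00814). Neither gene's groups overlapped, and Ncf4 rose by 0.96 on the log2 scale. Gch1, which makes the synthase's cofactor, fell (log2 fold change -0.69, adjusted p = 0.0348), with an adjusted p of 0.134 without CSF3R T618I library B, 0.0833 without empty-vector library A, 0.0929 without empty-vector library B and 0.119 without empty-vector library C, and 3 genes of the list fell without CSF3R T618I library C. Of 38 receptors for chemoattractants and microbial patterns, 15 rose (39.5%) and 2 fell (5.26%, near the share of all tested genes), with a median of 0.43. Cxcr2, the chemokine receptor of mature neutrophils, had 70.5, 47.6 and 85 CPM in CSF3R T618I cells, against 16.8, 13 and 10.1 CPM in empty-vector cells (log2 fold change 2.35, adjusted p = 0.00148). Clec5a, a myeloid lectin, had 429, 389 and 533 CPM in CSF3R T618I cells, against 86.3, 82.5 and 81.7 CPM in empty-vector cells (log2 fold change 2.43, adjusted p = 1.52e-04). Both receptors lay higher in every mutant library. Myd88, the adaptor of Toll-like receptors, averaged 262 ± 8.25 CPM in CSF3R T618I cells and 86.6 ± 3.87 CPM in empty-vector cells (SD, n = 3 each; log2 fold change 1.60, adjusted p = 2.01e-04). Clec12a, an inhibitory lectin, fell, with 88.7, 65.5 and 78.2 CPM in CSF3R T618I cells, against 278, 299 and 218 CPM in empty-vector cells (log2 fold change -1.78, adjusted p = 7.78e-04). The 2 falls became 5 without CSF3R T618I library C, and 1 without CSF3R T618I library B or empty-vector library A or B.

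Secreted factors moved in both directions. Of 31 cytokine and chemokine genes tested, 5 rose (16.1%) and 7 fell (22.6%), beside 5.87% and 5.25% of all tested genes. Csf1, the macrophage growth factor, had 154, 164 and 284 CPM in CSF3R T618I cells, against 13.5, 9.86 and 6.24 CPM in empty-vector cells (log2 fold change 4.35, SE 0.373, adjusted p = 4.85e-04). Tnfsf14, a TNF family ligand, had 37.8, 38.5 and 49.9 CPM in CSF3R T618I cells, against 10.2, 9.0 and 9.04 CPM in empty-vector cells (log2 fold change 2.16, adjusted p = 2.41e-04). Both ligands were higher in every mutant library. Among the chemokines that fell, Ccl6 had 627, 385 and 452 CPM in CSF3R T618I cells, against 1113, 1066 and 948 CPM in empty-vector cells (log2 fold change -1.09, adjusted p = 0.00924), and Ccl9 and Ccl3 fell too, with log2 fold changes of -0.94 and -1.18 and an adjusted p for Ccl3 of 0.0524 without CSF3R T618I library B. Angpt1, a ligand of the Tie2 receptor, had 10.6, 11.5 and 11.3 CPM in CSF3R T618I cells, against 76.2, 60.6 and 68.7 CPM in empty-vector cells (log2 fold change -2.62, SE 0.135, adjusted p = 7.52e-05), with no overlap and little spread. The falls numbered 4 without CSF3R T618I library B.

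Transcription factors of granulocytes and monocytes moved in both directions. Of 27 tested, 7 rose (25.9%) and 6 fell (22.2%), beside 5.87% and 5.25% of all tested genes. Only 4 of the 13 passed a log2 fold change of 1. Cebpb, a C/EBP factor of emergency granulopoiesis, had 364, 304 and 269 CPM in CSF3R T618I cells, against 147, 173 and 181 CPM in empty-vector cells (log2 fold change 0.90, adjusted p = 0.00899). Spi1, encoding PU.1, and Xbp1, of the unfolded protein response, rose by 0.70 and 0.97 on the log2 scale. Cebpa, whose mutants were in the libraries left out, had 136, 144 and 134 CPM in CSF3R T618I cells, against 137, 134 and 142 CPM in empty-vector cells and a log2 fold change of 0.001. Cebpe, a C/EBP factor needed for secondary granules, fell (log2 fold change -0.53, adjusted p = 0.0421), with an adjusted p of 0.18 without CSF3R T618I library B, 0.118 without empty-vector library A, 0.197 without empty-vector library B and 0.0756 without empty-vector library C. Irf8, which directs cells to the monocyte and dendritic fates, had 16.6, 15 and 19.9 CPM in CSF3R T618I cells, against 48.3, 46.2 and 59.2 CPM in empty-vector cells (log2 fold change -1.58, SE 0.162, adjusted p = 9.02e-04). Without empty-vector library B 4 factors rose, and without CSF3R T618I library B 3 fell.

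**Figure D4:**
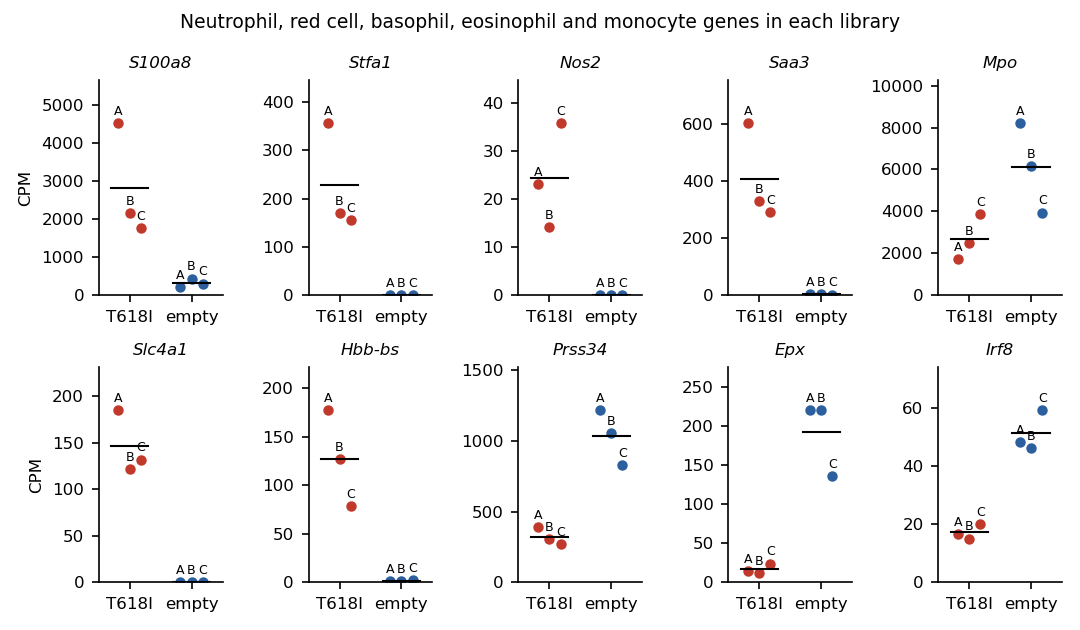
Each panel shows the CPM of a gene in the 3 CSF3R T618I libraries (red, left) and the 3 empty-vector libraries (blue, right), with letters for the replicates and a bar at the mean. S100a8, Stfa1, Nos2, Saa3, Slc4a1 and Hbb-bs lie far higher in the mutant libraries, Prss34, Epx and Irf8 lie lower, and Mpo nearly meets between library C of each group.

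A second set of genes that rose belonged to red cells. Of 25 tested genes of the red cell membrane and its enzymes 20 rose and none fell, with a median of 2.41, and of 19 genes of globin and heme synthesis 14 rose and none fell, with a median of 1.24, although 1 fell without CSF3R T618I library C. The summed level of the membrane list was 3302, 2691 and 2341 CPM in CSF3R T618I libraries A, B and C, against 877.6, 856.9 and 886.8 CPM in empty-vector libraries. Slc4a1, the anion exchanger band 3 of the red cell membrane, had 185, 122 and 132 CPM in CSF3R T618I cells, against 0.096, 0.129 and 0.0592 CPM in empty-vector cells (log2 fold change 10.57, SE 0.321, adjusted p = 2.93e-05). It had the largest rise of any called gene that had more than 3 counts in both groups and a mean of 10 CPM or more. The sort had removed cells that stained for lineage antigens in both groups.

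Alpha and beta globin rose with the membrane genes. Hba-a1 had 207, 156 and 86.3 CPM in CSF3R T618I cells, against 1.31, 1.33 and 1.62 CPM in empty-vector cells (log2 fold change 6.72, adjusted p = 1.23e-04). Hbb-bs had 177, 127 and 78.5 CPM in CSF3R T618I cells, against 1.34, 1.5 and 2.05 CPM in empty-vector cells (log2 fold change 6.28, adjusted p = 1.39e-04). The order among the mutant libraries was the same for both, A highest and C lowest, with every mutant library far above every empty-vector library. Across genes, deviations within the mutant group correlated with log2 exon length at -0.379, -0.182 and 0.446 in A, B and C. What this trend adds to the order was not tested. Globin copies share reads, so the split between Hba-a1 and Hba-a2 and between Hbb-bs and Hbb-bt is uncertain. Alas2, the erythroid form of the first enzyme of heme synthesis, had 29, 20.9 and 18.7 CPM in CSF3R T618I cells, against 0.0384, 0.236 and 0.158 CPM in empty-vector cells (log2 fold change 7.31, adjusted p = 1.28e-04). Alas1, the form used by other cells, had 568, 621 and 846 CPM in CSF3R T618I cells, against 828, 794 and 699.6 CPM in empty-vector cells and did not pass. Cpox, a later enzyme of the pathway, rose by 2.41 on the log2 scale. Car2, a carbonic anhydrase of red cells and other tissues, had 1386, 1137 and 861 CPM in CSF3R T618I cells, against 265, 272 and 309 CPM in empty-vector cells (log2 fold change 1.998, adjusted p = 6.67e-04), the fourth largest rise in CPM.

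Factors and receptors that control these genes rose as well. Of 15 erythroid transcription factors and receptors, 8 rose (53.3%) and none fell, beside 5.87% and 5.25% of all tested genes. Their median was 0.60. Klf1, which activates beta globin, had 101, 97.1 and 61 CPM in CSF3R T618I cells, against 25.4, 27.3 and 28.8 CPM in empty-vector cells (log2 fold change 1.67, SE 0.202, adjusted p = 0.00201). Gata1, the central factor of red cell and megakaryocyte development, had 94.6, 96.2 and 73.4 CPM in CSF3R T618I cells, against 52.6, 48.4 and 55.8 CPM in empty-vector cells (log2 fold change 0.75, adjusted p = 0.0139). The groups did not overlap for either gene. Epor, the erythropoietin receptor, averaged 16.2 ± 5.16 CPM in CSF3R T618I cells and 7.44 ± 1.18 CPM in empty-vector cells (SD, n = 3 each; log2 fold change 1.12, adjusted p = 0.0317). The adjusted p of Gata1 was 0.071 without CSF3R T618I library B, 0.0608 without empty-vector library A and 0.0913 without empty-vector library B, and that of Epor 0.0633 without CSF3R T618I library A, 0.111 without CSF3R T618I library B, 0.114 without empty-vector library A, 0.108 without empty-vector library B and 0.0756 without empty-vector library C. Tfrc, the transferrin receptor through which red cell precursors take up iron, overlapped between groups and did not pass, at 0.43 on the log2 scale. The number that rose was 5 without CSF3R T618I library B or without empty-vector library A, and 4 without empty-vector library B. Of 19 genes of iron handling 7 rose (36.8%) and 2 fell (10.5%), beside 5.87% and 5.25% of all tested genes. Fth1, the ferritin heavy chain, had 1908, 1718 and 1277 CPM in CSF3R T618I cells, against 791, 931 and 1094 CPM in empty-vector cells (log2 fold change 0.80, adjusted p = 0.0317), with an adjusted p of 0.0712 without CSF3R T618I library A, 0.118 without CSF3R T618I library B, 0.116 without empty-vector library A and 0.125 without empty-vector library B. Steap4, Lcn2 and Hp, described above, are also in this list. The 2 falls were lost without CSF3R T618I library A or B or without any of the empty-vector libraries.

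**Figure D5:**
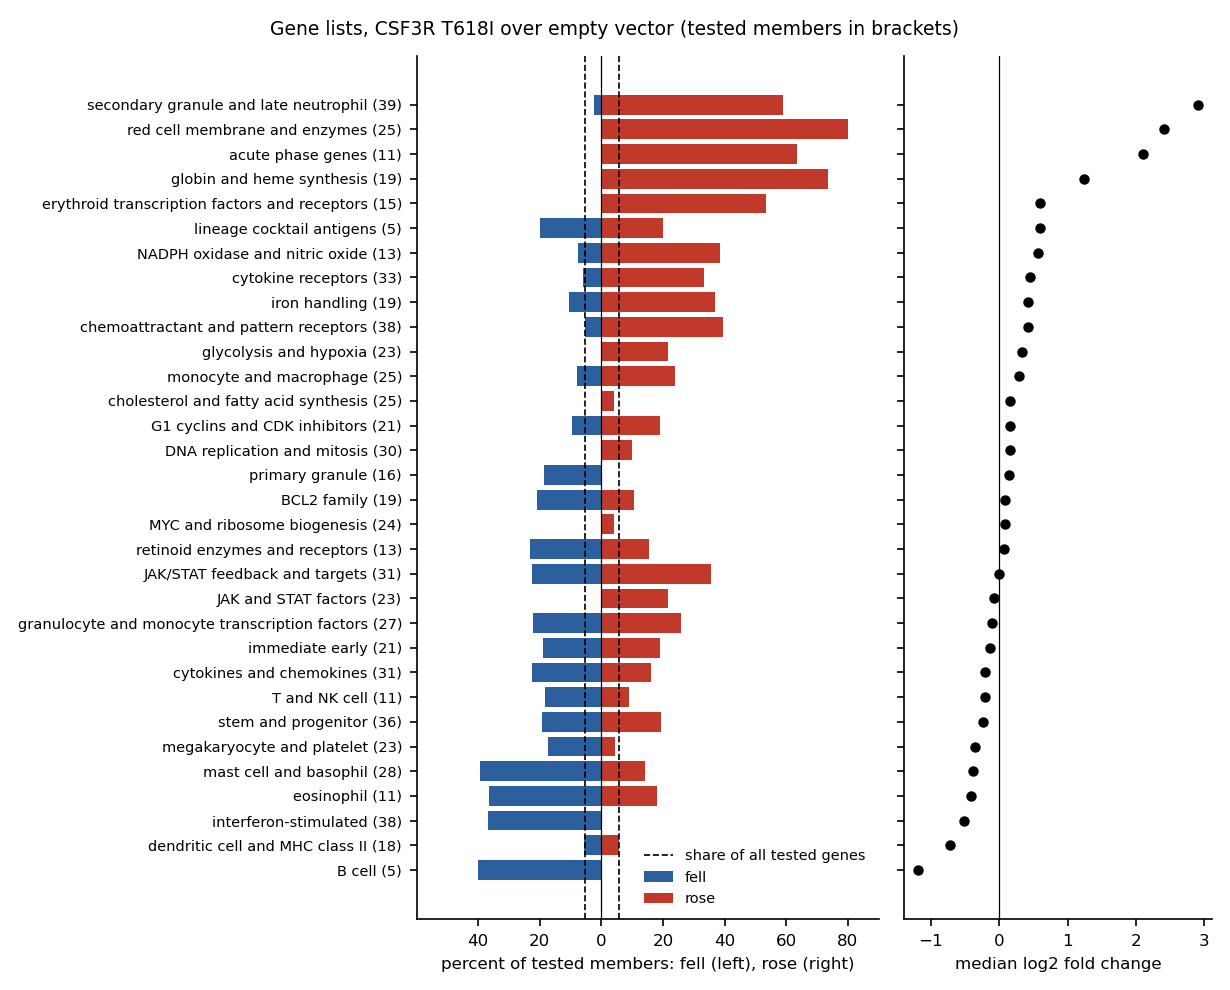
Left bars give, for each gene list, the percent of tested members that fell (blue, to the left) and rose (red, to the right) at an adjusted p under 0.05, with dashed lines at the 5.25% and 5.87% of all tested genes that fell and rose. Right points give the median log2 fold change of the tested members, which runs from 2.91 for late neutrophil genes to -1.19 for the 5 tested B cell genes. Members were chosen with earlier results of these data known, so the order of the lists is descriptive only.

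Many genes of mast cells and basophils, and several of eosinophils, fell in CSF3R T618I cells. Of 28 mast cell and basophil genes tested, 11 fell (39.3%) and 4 rose (14.3%), beside 5.25% and 5.87% of all tested genes. Their median was -0.39. Their summed level was 3698, 3415 and 3627 CPM in CSF3R T618I libraries, against 6552, 5555 and 4894 CPM in empty-vector libraries. Prss34 and Mcpt8 encode serine proteases of mouse basophils. Prss34 had 393, 306 and 269.6 CPM in CSF3R T618I cells, against 1216, 1055 and 831 CPM in empty-vector cells (log2 fold change -1.68, SE 0.196, adjusted p = 0.00166). Mcpt8 had 717, 464 and 399.8 CPM in CSF3R T618I cells, against 1120, 1117 and 966 CPM in empty-vector cells (log2 fold change -1.02, adjusted p = 0.0228). No mutant library reached the lowest empty-vector library for either gene, and the adjusted p of Mcpt8 was 0.102 without CSF3R T618I library B, 0.0722 without empty-vector library A, 0.0824 without empty-vector library B and 0.0554 without empty-vector library C. The 4 neighbours of Prss34 on chromosome 17, the protease genes Prss28, Tpsab1, Tpsb2 and Tpsg1, were also called lower, which was noticed after their values were seen. The adjusted p of Tpsab1 was 0.0544 without CSF3R T618I library B, 0.102 without empty-vector library A, 0.126 without empty-vector library B and 0.107 without empty-vector library C, and that of Tpsb2 was 0.071 without CSF3R T618I library B, 0.106 without empty-vector library A, 0.0818 without empty-vector library B and 0.0523 without empty-vector library C. That of Prss28 was 0.0864 without CSF3R T618I library B and 0.0814 without empty-vector library A. Alox5, the enzyme that starts leukotriene synthesis, had 139, 165 and 221 CPM in CSF3R T618I cells, against 554, 425 and 422 CPM in empty-vector cells (log2 fold change -1.42, adjusted p = 0.00426). Gata2, a factor of mast cells and of progenitors, had 235, 257 and 247 CPM in CSF3R T618I cells, against 547, 449 and 476 CPM in empty-vector cells (log2 fold change -0.995, adjusted p = 0.00195). The list did not fall as a whole. Mcpt1, a chymase of mucosal mast cells, had 12.6, 11.3 and 7.14 CPM in CSF3R T618I cells, against 0.0384, 0.0429 and 0.0395 CPM in empty-vector cells (log2 fold change 7.92, adjusted p = 7.52e-05). The mutant libraries were all far above empty-vector levels, and Mcpt2 rose by 3.96 on the log2 scale. These proteases are close copies, and their counts are uncertain to that extent. The falls numbered 5 without CSF3R T618I library B or empty-vector library A, and 6 without empty-vector library B.

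Of 11 eosinophil genes 4 fell (36.4%) and 2, Csf2rb and Gata1, rose (18.2%), beside 5.25% and 5.87% of all tested genes. Their summed level, Csf2rb included, was 1182, 1134 and 1323 CPM in CSF3R T618I libraries, against 904.2, 924.5 and 725.2 CPM in empty-vector libraries. Epx, the eosinophil peroxidase, had 14.5, 11.5 and 23.9 CPM in CSF3R T618I cells, against 221, 221 and 136 CPM in empty-vector cells (log2 fold change -3.53, SE 0.329, adjusted p = 6.67e-04), with every mutant library under every empty-vector library by a wide margin. Siglecf, a lectin of eosinophils, had 7.76, 10.1 and 12.5 CPM in CSF3R T618I cells, against 32.1, 26.6 and 24.1 CPM in empty-vector cells (log2 fold change -1.45, adjusted p = 0.00392). Prg2, the major basic protein of eosinophil granules, overlapped between groups and did not pass, at -0.41. Leaving out empty-vector library A or B left 2 falls and 1 rise, and leaving out CSF3R T618I library B left 1 rise.

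Stem and progenitor genes moved in both directions. Of 36 tested, 7 rose and 7 fell, 19.4% each, beside 5.87% and 5.25% of all tested genes. Their median was -0.23. Under total-count scaling 5 rose and 10 fell, and in the 12-library fit 8 rose and 13 fell. Cd34, a surface marker of progenitors, had 58.8, 84.2 and 88 CPM in CSF3R T618I cells, against 189, 158 and 186 CPM in empty-vector cells (log2 fold change -1.21, adjusted p = 0.00512). Myb, a factor that keeps progenitors immature, had 283, 302 and 312 CPM in CSF3R T618I cells, against 528, 521 and 499 CPM in empty-vector cells (log2 fold change -0.79, adjusted p = 0.00309). All mutant libraries lay below all empty-vector libraries for both. On the other side, Ly6a, encoding the Sca-1 antigen, had 34.5, 30.9 and 25.3 CPM in CSF3R T618I cells, against 6.65, 5.54 and 7.16 CPM in empty-vector cells (log2 fold change 2.23, adjusted p = 3.27e-04). Every mutant library lay above every empty-vector library for it. The rises numbered 4 without CSF3R T618I library B and 3 without empty-vector library A or B, and 13 genes fell without CSF3R T618I library C.

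The listed interferon-stimulated genes that passed the test all fell, while Ifitm1 and Ifitm3, outside the list, rose. Of 38 listed genes tested, 14 fell (36.8%) and none rose, with a median of -0.52. Over all tested genes 5.25% fell and 5.87% rose. The falls numbered 9 without library B of either group. Cmpk2, a mitochondrial nucleotide kinase induced by interferon, had 7.01, 7.97 and 9.31 CPM in CSF3R T618I cells, against 46.7, 37.7 and 34.9 CPM in empty-vector cells (log2 fold change -2.30, SE 0.172, adjusted p = 3.02e-04). Usp18, which removes ISG15 from proteins and restrains interferon signalling, had 2.84, 1.81 and 1.79 CPM in CSF3R T618I cells, against 10.4, 10.4 and 8.8 CPM in empty-vector cells (log2 fold change -2.20, adjusted p = 8.40e-04). Irf7, a factor of the interferon response, had 5.24, 3.45 and 5.02 CPM in CSF3R T618I cells, against 12.2, 9.51 and 9.22 CPM in empty-vector cells (log2 fold change -1.18, adjusted p = 0.0104). Ifitm1 and Ifitm3, interferon-induced membrane proteins that block viral entry and are outside the list, were among the largest rises in CPM instead. Ifitm1 had 1604, 1427 and 1239 CPM in CSF3R T618I cells, against 320.3, 346 and 436 CPM in empty-vector cells (log2 fold change 1.95, adjusted p = 4.58e-04). Ifitm3 had 1154, 946 and 814 CPM in CSF3R T618I cells, against 165, 167 and 198 CPM in empty-vector cells (log2 fold change 2.46, adjusted p = 1.91e-04). Neither gene's groups overlapped.

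Monocyte, macrophage and megakaryocyte genes moved in both directions. Of 25 genes of monocytes and macrophages 6 rose (24.0%, beside 5.87% of all tested genes), and the 2 that fell (8.0%, beside 5.25%) were Ly6c2 and Irf8. Ly6c2, part of the Ly6C antigen of monocytes, had 57, 31.4 and 42.4 CPM in CSF3R T618I cells, against 315, 355 and 232 CPM in empty-vector cells (log2 fold change -2.79, SE 0.262, adjusted p = 6.67e-04). Lgals3, encoding galectin-3, had 293, 189 and 180.4 CPM in CSF3R T618I cells, against 68.3, 76.6 and 77.4 CPM in empty-vector cells (log2 fold change 1.58, adjusted p = 0.00278). The 6 rises became 3 without CSF3R T618I library B or empty-vector library B, and 4 genes fell without CSF3R T618I library C. Of 23 megakaryocyte genes 4 fell (17.4%) and 1 rose (4.35%, near the share of all tested genes), the rise being Selp, encoding P-selectin, at 1.77. The falls numbered 9 without CSF3R T618I library C, 7 with DESeq2 or in the 12-library fit, and 6 under total-count scaling. The median over these genes was -0.35.

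Several defining lymphoid markers had no counts, while other genes of the same lists were expressed. Cd3e, Cd8a, Pax5 and Rag1 had 0 counts in all 6 libraries. Only 5 of 19 B cell genes and 11 of 25 T and NK cell genes were tested, of which 2 and 2 fell, and Il7r alone rose. The B cell list summed to 13.9 to 17.1 CPM in CSF3R T618I cells and 30.7 to 34.0 CPM in empty-vector cells. Its highest members were Cd79b, of the B cell receptor complex, and Ighm, the mu heavy chain. Cd79b had 8.12, 8.32 and 8.06 CPM in CSF3R T618I cells, against 13.3, 13.4 and 11.6 CPM in empty-vector cells (log2 fold change -0.64, adjusted p = 0.0164). Ighm had 5.89, 5.03 and 8.43 CPM in CSF3R T618I cells, against 15.6, 19.4 and 19.9 CPM in empty-vector cells (log2 fold change -1.504, adjusted p = 0.00441). Neither gene's groups overlapped, and the adjusted p of Cd79b was 0.0701 without CSF3R T618I library B, 0.0784 without empty-vector library A and 0.106 without empty-vector library B. The T and NK cell list summed to 525.2 to 553.4 CPM in CSF3R T618I cells and 554.0 to 639.1 CPM in empty-vector cells. Gzmb, encoding granzyme B and also a member of the mast cell list, had 216, 263 and 354 CPM in CSF3R T618I cells, against 216, 178 and 152 CPM in empty-vector cells and did not pass. Without CSF3R T618I library C 3 B cell genes fell and 1 rose, and 2 genes of the T and NK cell list rose. The B cell falls numbered 1 without CSF3R T618I library B or without empty-vector library A or B, and the T and NK cell falls numbered 1 without CSF3R T618I library B or empty-vector library B. Of 18 dendritic cell and MHC class II genes 1 rose and 1 fell, 5.56% each, near the 5.87% and 5.25% of all tested genes. That rise was lost without CSF3R T618I library A or B or without any of the empty-vector libraries, and 4 fell without CSF3R T618I library C. Of the antigens named for the sort, 5 of 7 were tested. Ly6c2 fell and 1 other rose, while without CSF3R T618I library C 2 rose and 2 fell.

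Most cell cycle and biosynthetic genes did not pass the test. Of 30 genes of DNA replication and mitosis 3 rose (10.0%), and of 23 of glycolysis and hypoxia 5 (21.7%). Of 25 of cholesterol and fatty acid synthesis 1 rose (4.0%), and of 24 of MYC and ribosome biogenesis 1 (4.17%). No gene of these lists fell, while 5.87% of all tested genes rose and 5.25% fell. Their medians ran from 0.09 to 0.33. In the 12-library fit the rises numbered 10, 11, 4 and 3. With DESeq2 they numbered 5, 9, 2 and 2, with the length trend removed 4, 9, 3 and 2, and under total-count scaling 2, 2, 0 and 1. They numbered 7, 8, 4 and 4 without CSF3R T618I library C, with falls of 3, 1, 2 and 0. Without CSF3R T618I library B, or without any of the empty-vector libraries, none of the replication and cholesterol genes rose. In these fits 1 or 2 glycolysis and hypoxia genes did. Without CSF3R T618I library A 3 glycolysis and hypoxia genes and no cholesterol gene rose. Myc had 373, 506 and 551 CPM in CSF3R T618I cells, against 600.3, 561 and 593 CPM in empty-vector cells and did not pass. Mki67, a marker of cycling cells, had 379, 342 and 407 CPM in CSF3R T618I cells, against 318, 250.3 and 207 CPM in empty-vector cells and did not pass either, at 0.54.

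Within the G1 cyclins and CDK inhibitors, 4 of 21 rose (19.0%) and 2 fell (9.52%), beside 5.87% and 5.25% of all tested genes. Cdkn2d, encoding the inhibitor p19 of CDK4 and CDK6, had 255, 207 and 163 CPM in CSF3R T618I cells, against 48.9, 54.2 and 57.6 CPM in empty-vector cells (log2 fold change 1.96, adjusted p = 6.67e-04). E2f2 had 135, 122 and 139 CPM in CSF3R T618I cells, against 41.5, 40.3 and 36.4 CPM in empty-vector cells (log2 fold change 1.75, adjusted p = 2.01e-04), and Ccnd3 and Ccne1 were the other rises. The 2 falls became 4 without CSF3R T618I library C and 1 without empty-vector library B. Mxd1, which antagonises MYC and is known from late neutrophils, was the MYC list gene that rose, with 141, 97.6 and 178 CPM in CSF3R T618I cells, against 52.8, 47.3 and 41.4 CPM in empty-vector cells (log2 fold change 1.56, adjusted p = 0.0045). Of 19 BCL2 family genes 2 rose (10.5%) and 4 fell (21.1%), beside 5.87% and 5.25% of all tested genes. Bcl2 had 35.8, 40.8 and 32.9 CPM in CSF3R T618I cells, against 84.7, 77 and 84.8 CPM in empty-vector cells (log2 fold change -1.17, adjusted p = 0.0011), and Mcl1, the member on which neutrophils rely, rose by 0.52, with an adjusted p of 0.0743 without CSF3R T618I library A, 0.0766 without CSF3R T618I library B, 0.136 without empty-vector library A, 0.152 without empty-vector library B and 0.0844 without empty-vector library C. Leaving out CSF3R T618I library C gave 7 rises and 7 falls. The rises numbered 1 without CSF3R T618I library A and 0 without its library B or any of the empty-vector libraries, and the falls numbered 2 without CSF3R T618I library B or empty-vector library C and 1 without empty-vector library B.

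Of 21 immediate early genes 4 rose and 4 fell, 19.0% each, beside 5.87% and 5.25% of all tested genes. Egr1, a zinc finger factor induced through ERK, had 69.8, 80.4 and 71.7 CPM in CSF3R T618I cells, against 163, 151 and 130.1 CPM in empty-vector cells (log2 fold change -0.998, adjusted p = 0.00299). The rises numbered 6 without CSF3R T618I library C, 2 without CSF3R T618I library B or empty-vector library C and 1 without empty-vector library B, and the falls 2 without CSF3R T618I library B. Of 13 genes of retinoid metabolism and response 2 rose (15.4%) and 3 fell (23.1%), beside 5.87% and 5.25% of all tested genes. Aldh1a3, which makes retinoic acid from retinaldehyde, had 0.569, 0.723 and 0.937 CPM in CSF3R T618I cells, against 24.2, 19.2 and 18.9 CPM in empty-vector cells (log2 fold change -4.80, SE 0.227, adjusted p = 7.52e-05). It was the largest fall among genes with a mean of 10 CPM or more in empty-vector cells, and no mutant library came near the lowest empty-vector library. The retinoid rises became 4 without CSF3R T618I library C, 0 without empty-vector library B and 1 without empty-vector library C, and the falls 1 without CSF3R T618I library B or empty-vector library A or B.

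Beyond the lists, the largest changes among genes with at least 10 CPM on their high side included genes known mainly from other tissues. Rtn4rl2, a receptor related to the Nogo receptor of neurons, had 52.6, 58.7 and 71.9 CPM in CSF3R T618I cells, against 0.0192, 0.107 and 0.0592 CPM in empty-vector cells (log2 fold change 9.92, SE 0.339, adjusted p = 3.29e-05). Tcf21, a factor known from mesenchymal tissues, had 2001 counts over the CSF3R T618I libraries and 2 over the empty-vector libraries, a ratio of 912.9 with a 95% counting interval of 252.4 to 7543. Apol11b, of the apolipoprotein L family, had 2721 counts over the mutant libraries and 0 over the empty-vector libraries, at least 827.6-fold higher. Ehf, an ETS factor known from epithelia, had 19.7, 10.8 and 9.04 CPM in CSF3R T618I cells, against 0.096, 0.0429 and 0.0395 CPM in empty-vector cells (log2 fold change 7.72, adjusted p = 1.71e-04). For all 4 the groups did not overlap.

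Among the largest falls, Akr1c18, which inactivates progesterone, had 10.5, 4.64 and 6.43 CPM in CSF3R T618I cells, against 88.1, 84 and 95.7 CPM in empty-vector cells (log2 fold change -3.64, SE 0.295, adjusted p = 3.93e-04). Its neighbours Akr1c12 and Akr1c13 on chromosome 13 were called lower too. Igfbp7, a secreted binding protein of insulin-like growth factors, had 3.15, 2.77 and 2.14 CPM in CSF3R T618I cells, against 33.2, 31 and 29.1 CPM in empty-vector cells (log2 fold change -3.53, adjusted p = 7.52e-05). Gpr34 and Tmem119 are both known as markers of brain microglia. Gpr34 had 2.01, 3.07 and 2.62 CPM in CSF3R T618I cells, against 23.5, 18.9 and 22.6 CPM in empty-vector cells. Tmem119 had 1.46, 1.37 and 2.77 CPM in CSF3R T618I cells, against 19.8, 16.1 and 13.6 CPM in empty-vector cells. Tcrg-C1, a constant gene of the T cell receptor gamma locus, had 32, 34 and 25.7 CPM in CSF3R T618I cells, against 195, 205 and 236 CPM in empty-vector cells (log2 fold change -2.79, adjusted p = 1.26e-04) while Cd3e was at 0. The groups did not overlap for any of these genes. Siglecg, a sialic acid binding lectin, had a log2 fold change of -2.999, and the other large falls were Osbpl3, an oxysterol binding protein (-2.76), Chdh, choline dehydrogenase (-2.61), and Grm6, a glutamate receptor (-2.57). In CPM the largest fall of a called gene was that of Lta4h, the hydrolase that makes leukotriene B4, with 630.0, 682 and 758 CPM in CSF3R T618I cells, against 1439, 1487 and 1353 CPM in empty-vector cells (log2 fold change -1.05, adjusted p = 0.00121). Hk3, the hexokinase of myeloid cells, had 131, 141 and 182 CPM in CSF3R T618I cells, against 488, 467 and 406 CPM in empty-vector cells (log2 fold change -1.58, adjusted p = 8.49e-04). Of the other large rises in CPM, Lipg, encoding endothelial lipase, had 552, 781 and 1556 CPM in CSF3R T618I cells, against 202, 169 and 87.6 CPM in empty-vector cells (log2 fold change 2.66, adjusted p = 0.00858), with library C of the mutant far above A.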

How the data were processed

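The 6 libraries whose labels name CSF3R T618I alone or the empty vector, of 12 in the series, were compared 3 against 3. RNA came from the RNeasy micro kit, and cDNA from SMARTer, a low-input kit with PCR amplification. The authors trimmed reads with Trimmomatic, aligned them with STAR to mm10 (the build named in the submitters' processing notes) and tested them with DESeq2. What program counted the reads, on which annotation and with which strand setting is not given in the sources used here. Overlapping and antisense genes therefore cannot be separated. Deposited values were raw counts, not normalized. After 6 repeated lines were dropped 51912 genes remained, and 0 columns lacked a sample. Names came from the table itself or a name table that held 51633 of the IDs, and coordinates from GENCODE M21. Counting intervals cover counting error only.

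The main test was the robust quasi-likelihood F test of edgeR 4.0.16 (R 4.3.3) on the 6 libraries alone, after TMM scaling and the default filter by group, with Benjamini-Hochberg adjustment over the 15304 genes that passed. Standard errors were derived from the F statistic. Alternatives were a fit on all 12 libraries with an interaction, DESeq2 1.42.0, other scalings and filters, limma 3.58.1 with voom, removal of the length trend, the replicate letter as a block, and leaving out each library. Deviations of same-letter libraries correlated at -0.418, 0.083 and -0.237 for A, B and C, and the labels do not say that equal letters share an animal or culture. The letters were therefore not taken as pairs. Because deviations also followed exon length, these correlations cannot exclude a shared animal or batch. The test was also run on simulated counts, drawn with equal spread in both groups and no length trend. That run cannot speak for the unequal spread and the length trends of these libraries.

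Named genes were the 15 largest log2 fold changes each way among called genes with at least 10 CPM in the higher group and no overlap, the 10 largest rises and falls in CPM, Csf3r, and members of 32 gene lists with 720 genes, 638 of them tested. The members and lists were chosen with earlier results of these data known. Some members counted within the lists are not reported here by name.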

Additional observations from a re-analysis of the deposited data

How the results depend on the processing

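Of the 3 counts of called genes (1071 in all, 605 higher and 466 lower), none moved by more than 1.5 times with DESeq2 (1361 called), all 12 libraries in an interaction fit (1390), the length trend removed (1177), RLE size factors (1069), voom (1064), total-count scaling (1167), a minimum of 1 CPM (938) or no filter (1232). DESeq2 shared 99.5% of the 1071 calls, the 12-library fit 98.1%, and removal of the length trend 94.5%. Of the 64 counts of list members that rose or fell, 19 moved by more than 1.5 times in the 12-library fit, 11 with DESeq2, 10 with the length trend removed, 6 under total-count scaling, 6 without a filter, 3 with a minimum of 1 CPM, 1 each with RLE and voom and 37 under the block. On the adjusted p alone 1702 genes passed, 804 of them lower. With the replicate letter as a block 646 genes were called, 239 of them lower, and 60.1% of the 1071 calls were shared. Under this block 32 of the 135 genes followed fell short of the threshold, and they are not listed here. Whether equal letters share an animal or culture is not known, so whether the block is the right model was not tested. Leaving out each library in turn gave 808 to 1699 called genes, 482 to 895 higher and 322 to 804 lower. The highest values came without CSF3R T618I library C, which also held 95.9% of the 1071 calls. Under total-count scaling 47.6% of calls were higher, against 56.5% after TMM scaling. Of the genes named, Csf3r passed the threshold in the 12-library fit, and none reversed its direction under any of these settings. Elane fell short of the threshold with voom, with the length trend removed and with a minimum of 1 CPM. Dusp1 and Prss28 fell short with voom, Socs2, Ccnd2 and Gch1 with the length trend removed, Cd177, Mcl1, Cebpe and Prok2 without a filter, and Mcl1, Lyn and Fth1 under total-count scaling. With 3 libraries per group and PCR-amplified cDNA, genes under 1 CPM rest on few molecules.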

Other observations

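Calls also fell on neighbouring genes. In 24 places at least 3 consecutive tested genes were called in the same direction. On chromosome 12, Dlk1 (a Notch-like membrane protein) and the noncoding RNAs Meg3 and Rian, of a known imprinted cluster at chr12:109452823-109661716, were all higher in CSF3R T618I cells, with log2 fold changes of 3.88, 5.48 and 4.45. Their levels stayed low, at 4.47, 6.42 and 6.87 CPM for Dlk1 in CSF3R T618I cells, against 0.288, 0.623 and 0.296 CPM in empty-vector cells. On chromosome 8 the metallothioneins Mt1 and Mt2, which bind zinc and copper, rose by 1.31 and 2.63 on the log2 scale. Mt1 had 396, 326 and 186 CPM in CSF3R T618I cells, against 93.3, 124 and 148 CPM in empty-vector cells. The groups did not overlap, but the adjusted p of Mt1 was 0.0506, 0.0939, 0.0929, 0.0951 and 0.0568 without CSF3R T618I library A or B or empty-vector library A, B or C, in that order. On chromosome 9 Pgr, the progesterone receptor, was called lower with its neighbours Cep126 and Trpc6, at a log2 fold change of -4.87 and under 4 CPM in every library. Prok2, a chemokine-like ligand known from neutrophils, had 1208 counts over the CSF3R T618I libraries and 0 over the empty-vector libraries, at least 367.4-fold higher. These genes were chosen after their values were seen.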
